A study of Sus scrofa with 4 samples.

Results

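Liver and kidney of Tibetan pigs (Sus scrofa) were compared gene model by gene model. The series holds 4 RNA sequencing libraries, of which 1 each came from liver and kidney and the other two from heart and lung, and all are labelled as the Tibetan breed. The labels give no age, sex or treatment, and nothing in them says whether the tissues came from the same animal. Gene models are predicted genes on assembly scaffolds, and each table lists the reads on a model and its RPKM, which is reads scaled to the length of the model and to the total reads of the library. A model was compared when it reached 1 RPKM or more in liver or in kidney, which held for 13702 of the 18367 models with a read in any library. With 1 library on each side there is no replicate check, so each value describes these 2 libraries, and intervals cover counting error only.

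The liver secretes most plasma proteins, including albumin, transport proteins and clotting factors, and it handles lipids, sugars, bile acids and foreign compounds. The kidney filters blood and recovers salts, sugars, amino acids and water through transporters along its tubules. Both organs run gluconeogenesis, oxidise fatty acids, break down amino acids and conjugate foreign compounds, and both are rich in mitochondria. None of the 18367 identifiers matched a pig gene name (0 matches in either reference table), so none of these functions can be assigned to a model below, and the tissue labels could not be checked against marker genes.

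The liver library held 4090775 reads on 14493 models and the kidney library 5486480 reads on 15960 models. Models with reads in both libraries numbered 13899, while 2061 had reads only in kidney and 594 only in liver. A further 2852 models had reads in liver or kidney but stayed under 1 RPKM in both, and were not compared. With detection set at 1 RPKM, both tissues shared 10976 models, and 2232 were detected in kidney alone and 494 in liver alone. At the median length of the compared models, 1323 bases, 1 RPKM stood for 5.41 reads in liver and 7.26 in kidney. Few models lay at the limit itself: the higher of the 2 values was between 1 and 1.1 RPKM in 127 compared models, and between 0.9 and 1 RPKM in 159 models left out.

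The typical model was lower in liver than in kidney. Over the 13702 models the median liver minus kidney difference in log2(RPKM + 1) was -0.996, with quartiles of -1.60 and -0.39. Liver was lower in 11498 models and higher in 2204. Without the added 1 RPKM, the median ratio of liver to kidney was 0.498 over the 10976 models above 1 RPKM in both, so the median model had 2.01 times the RPKM in kidney. The central 90% of these log2 ratios ran from -3.03 to 1.25.

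That offset was removed by scaling both libraries evenly around the median ratio. After scaling, 3864 models that had been lower in liver became higher in liver, giving 6068 higher and 7634 lower. The median difference in log2(RPKM + 1) was then -0.13, with quartiles of -0.82 and 0.50. It is not 0 because the ratio was taken over models above 1 RPKM in both, while the compared set also holds models nearly absent from 1 tissue. The share of models within 2-fold was 43.3% as deposited and 65.4% after scaling. For fewer models, 4562 (33.3%), the whole 95% counting interval of the scaled ratio lay within 2-fold, against 2228 (16.3%) as deposited. These intervals are of the ratio without the added 1 RPKM, and models with 0 reads in either tissue do not count as within. The drop from the shares above is therefore not due to counting error alone.

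**Figure D1:**
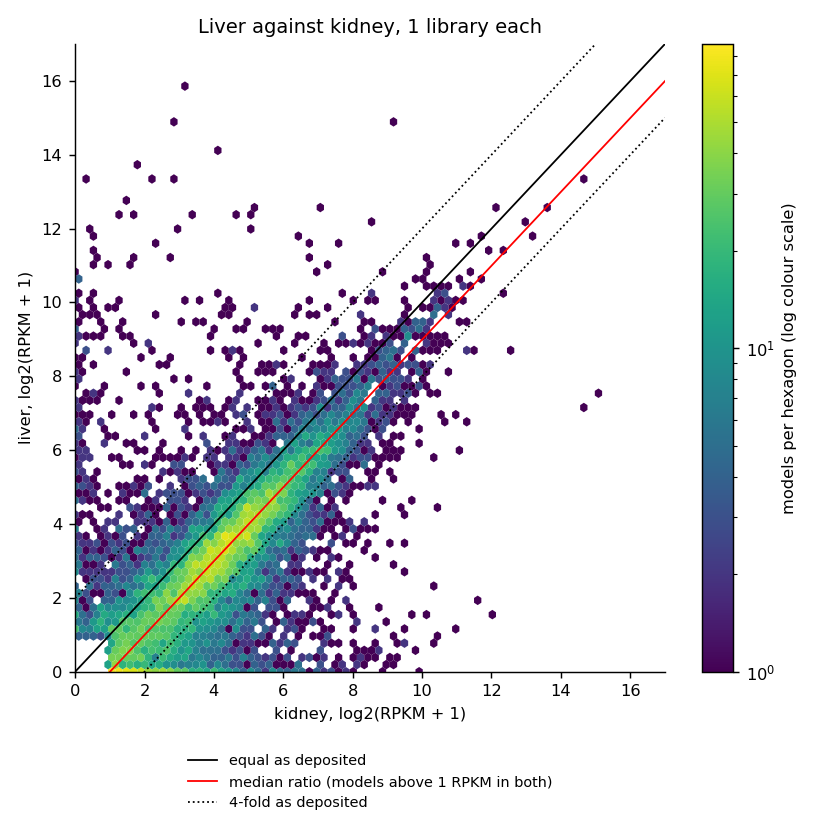
Each hexagon counts models by log2(RPKM + 1) in kidney (x) and liver (y), with colour on a log scale, over the 13702 models compared. The black line marks equal values, the red line the median ratio of 0.498, and the dotted lines a 4-fold difference; the dense band follows the red line, and the models far above it reach higher values than those far below it.

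The label calls this the closest pair, and the same rule was applied to the other 5 pairs as a check. Over their 13702 models, which share 2 libraries and are no replicates, liver and kidney had a Spearman correlation of 0.697. The other pairs ranged from 0.492 (heart with liver) to 0.615 (heart with lung). The median size of the scaled log2 difference was 0.66 for liver and kidney, against 0.86 for heart and kidney, the next closest by this measure, and 1.103 for liver and lung. The share within 2-fold after scaling was 65.4%, against 45.9% to 55.9% in the other pairs. Among models with 30 reads or more in both libraries of a pair, it was 77.6% for liver and kidney (7412 models) and 55.6% to 64.5% elsewhere. As deposited the order was different: 43.3% of the liver and kidney models were within 2-fold, below the 45.1% to 53.6% of each other pair except liver and lung (32.1%). Liver and kidney were thus the closest pair by rank and after scaling, and not by deposited values. With 1 library per tissue none of these differences could be tested.

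The very highest models of the liver ranked low in kidney, whereas the very highest of the kidney ranked high in liver. The 10 models of highest RPKM in liver had a median rank of 9836.5 in kidney, and the 10 highest in kidney had a median rank of 30 in liver. Only 1 model was in both lists. Of the 100 highest models in each tissue, 36 were shared (36.0% of each list), and of the 1000 highest, 609 were shared (60.9%). For the 100 highest the median rank in the other library was 860 for those of liver and 134.5 for those of kidney. For the 1000 highest it was 687.5 and 799, so the order turned in the longer lists. At 1000 RPKM or more there were 94 models in liver, 104 in kidney and 35 in both.

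Compared rank by rank rather than model by model, the liver library was steeper. Its highest model reached 59403 RPKM against 37344 in kidney, and at rank 20 the values were 4713 and 2545 RPKM. Liver stayed above kidney at each of the first 66 ranks and was lower from rank 67 to rank 12000, with 980 against 1031 RPKM at rank 100, 90.2 against 148 at rank 1000 and 2.25 against 5.82 at rank 10000. The kidney value was thus 1.05 times the liver value at rank 100 and 2.59 times at rank 10000.

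**Figure D2:**
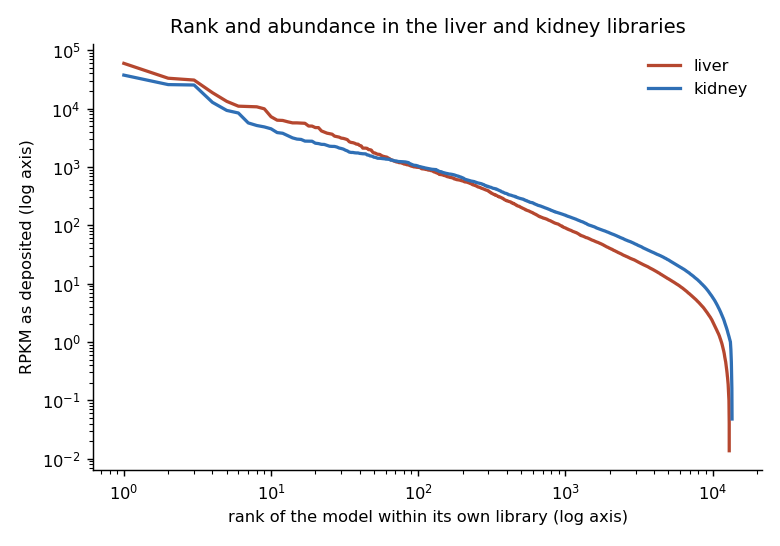
RPKM as deposited (y, log axis) against the rank of a model within its own library (x, log axis), for liver and kidney, over the models compared. The curves cross at rank 67: liver lies above kidney before it and below kidney after it.

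Models that differed at least 4-fold in RPKM + 1, a scale that understates the difference of low models, were counted in each direction. As deposited, 522 models were higher in liver (3.81% of the models compared) and 2213 were higher in kidney (16.2%). After scaling these counts were 829 (6.05%) and 1104 (8.06%). All 522 were among the 829, and all 1104 were among the 2213. The share of the called models that were higher in liver thus went from 19.1% as deposited to 42.9% after scaling. Requiring also that the counting interval of the ratio lie wholly past 4-fold left 450 models higher in liver (3.28%) and 1565 higher in kidney (11.4%) as deposited. After scaling it left 700 (5.11%) and 723 (5.28%). The balance between the directions depended on the setting: by the 4-fold rule alone, scaling to the reads outside the 100 models of most reads in either library gave 735 models higher in liver and 1281 higher in kidney. A pseudocount of 0.1 RPKM in place of 1 gave 1082 and 1957 after median-ratio scaling.

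The models higher in liver were fewer than those higher in kidney but took a larger share of the reads of their own library. That each class was high in 1 library and low in the other follows from the call, which used these same values. The 522 models higher in liver as deposited took 53.8% of liver reads (95% Clopper-Pearson interval 53.8 to 53.9) and 0.910% of kidney reads (0.902 to 0.918). The 2213 models higher in kidney took 28.9% of kidney reads (28.8 to 28.9) and 2.37% of liver reads (2.36 to 2.39). Within each group reads were concentrated, since 10 models held 50.4% of the liver reads of the first group and 10 held 21.4% of the kidney reads of the second. The models within 4-fold took 43.7% of liver and 70.04% of kidney reads. By the scaled classes, the 829 models higher in liver took 57.2% of liver reads. The 1104 higher in kidney took 18.8% of kidney reads. Summing the smaller of the 2 read shares over all models gave an overlap of 42.7% between the libraries.

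The offset of the median model was smaller when the most abundant models were set aside. The 100 models of most reads in either library, 175 in all, took 55.8% of liver and 24.6% of kidney reads. Per read outside these models, the median ratio of liver to kidney over the 10976 models was 0.85, or -0.23 on the log2 scale, against 0.498 per read in total.

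Differences were ranked by the ratio of RPKM + 1, and only among models with enough reads in the lower tissue. A model left out for this, evm.model.scaffold11692.28, had 1178 RPKM in liver and 0.0479 in kidney from 1 read. Its RPKM ratio was larger than those given below. Among models with at least 10 reads in the lower tissue and 10 RPKM in the higher, the first in liver was evm.model.scaffold27953.4 (1860 bases), at 59403 RPKM in liver and 8.23 in kidney (95% Poisson interval 6.57 to 10.2). Its ratio of 7217 had an interval of 5829 to 9048. The second was evm.model.scaffold21842.4 (1044 bases), at 30733 RPKM in liver, rank 3 of that library, and 6.11 in kidney (4.26 to 8.50), rank 9863. It was 5030-fold higher in liver (3616 to 7221). Its values in the libraries outside the comparison were 639 RPKM in lung and 2.32 in heart.

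By the same ranking, the largest differences toward kidney were smaller. The first model there was evm.model.scaffold540.18 (1866 bases), at 3873 RPKM in kidney and 1.83 in liver (1.00 to 3.08, from 14 reads), a 2112-fold difference (1258 to 3863). The second, evm.model.scaffold26154.9 (1917 bases), stood at 2016 RPKM in kidney and 1.40 in liver (0.7002 to 2.51, from 11 reads), a 1438-fold difference (803 to 2880). Both were under 1 RPKM in heart and in lung. They ranked 11 and 31 in the kidney library.

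Some of the most abundant models were even between the tissues once the offset was removed. Among models within 1.1-fold after scaling, evm.model.scaffold45520.16 (444 bases) had the highest lower value, at 5920 RPKM in liver (5809 to 6033) and 12753 in kidney (12612 to 12896). Its scaled liver to kidney ratio was 0.93 (0.91 to 0.95). The next, evm.model.scaffold35210.1 (789 bases), had 2698 RPKM in liver against 5116 in kidney, with a scaled ratio of 1.06 (1.03 to 1.09). As deposited both would read as about 2-fold lower in liver, with kidney to liver ratios of 2.15 and 1.90.

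Of the compared models, 736 had 0 reads in liver and 153 had 0 reads in kidney. Most of these were low in the other tissue, with medians of 3.28 RPKM in kidney and 6.47 RPKM in liver. At 10 RPKM or more in the other tissue, 147 models had 0 reads in liver and 64 had 0 reads in kidney. Against a floor of 3 counts per library, 200 models were at least 10-fold higher in kidney and 80 were at least 10-fold higher in liver. The highest such bound was 942-fold for kidney and 2136-fold for liver.

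Agreement depended on the level of the model. Level was taken as the mean of the 2 log2(RPKM + 1) values, turned back to RPKM. The added 1 RPKM narrows differences among low models, which the shares below include. After scaling, the share within 2-fold was 54.7% in the 2088 models under 2 RPKM and 55.4% in the 2270 models from 2 to 5 RPKM. It was 72.3% in the 3781 models from 10 to 30 RPKM and 72.5% in the 2158 models from 30 to 100. In the 680 models from 100 to 300 RPKM it was 66.0%, in the 255 from 300 to 1000 it was 65.9% and in the 62 at 1000 or more it was 67.7%. As deposited the shares did not drop at high level: they were 41.1% under 2 RPKM, 45.5% from 10 to 30, 46.5% from 30 to 100, 46.6% from 100 to 300, 54.1% from 300 to 1000 and 71.0% at 1000 or more.

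The spread at low level came with few reads, and the spread at high level did not. Spread is given here as the interquartile range of the scaled log2 difference divided by 1.35, which equals the SD of a normal distribution, beside the median spread expected from counting alone. Under 2 RPKM, where the median model had 2 liver reads and 13 kidney reads, these were 1.04 and 0.35. From 10 to 30 RPKM they were 0.78 and 0.20, and from 100 to 300 RPKM 0.98 and 0.09. At 1000 RPKM or more they were 0.57 and 0.03. The added 1 RPKM narrows the spread of low models. Under 2 RPKM the scaled quartiles were -1.18 and 0.23 with it. Without it they were -1.74 and 0.76, over the 1446 models with reads in both. From 100 to 300 RPKM they were -0.41 and 0.91 with it and -0.41 and 0.92 without. The observed spread was at least 3.01 times the counting spread in each of the 8 strata. A count of 0 entered with no counting error, so the counting spread can be too small where such models are many. Under 2 RPKM, where the ratio was 3.01, 560 of the 2088 models had 0 liver reads.

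The direction of the difference moved with the level, and at low level also with the reads required. The scaled median difference was -0.57 under 2 RPKM, -0.30 from 2 to 5, -0.20 from 5 to 10, -0.04 from 10 to 30, 0.06 from 30 to 100, 0.17 from 100 to 300, 0.41 from 300 to 1000 and 0.39 at 1000 or more. Among models with 30 reads or more in both tissues, the lowest 3 strata turned to 0.44 (21 models), 0.23 (317 models) and 0.03 (1099 models), while the strata from 10 RPKM up stayed within 0.1 of the values above. As deposited, each stratum of all models was lower in liver, from -1.08 between 5 and 10 RPKM to -0.59 between 300 and 1000. After scaling, models higher in kidney outnumbered those higher in liver by 338 (14.9% of the stratum) to 159 (7.004%) from 2 to 5 RPKM. From 100 to 300 RPKM 72 (10.6%) were higher in liver and 24 (3.53%) in kidney. From 300 to 1000 RPKM these were 33 (12.9%) and 6 (2.35%). Over all models the scaled shares were 6.05% for liver and 8.06% for kidney. As deposited, models higher in kidney were more numerous in each of these level strata. They numbered 542 (23.9%) against 100 (4.41%), 75 (11.03%) against 48 (7.06%) and 25 (9.804%) against 20 (7.84%). The deposited shares over all models were 16.2% for kidney and 3.81% for liver.

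A level defined by the compared values is not independent of them, so the strata were also built on the mean level in heart and lung. The low strata changed little, with scaled medians of -0.61 under 2 RPKM and -0.29 from 2 to 5. Between 100 and 300 RPKM the median was -0.14 where it had been 0.17, and between 300 and 1000 RPKM it was 0.03 where it had been 0.41. The counts of called models were then 22 higher in liver (3.44%) and 30 higher in kidney (4.69%) from 100 to 300 RPKM. From 300 to 1000 they were 4 (2.29%) and 11 (6.29%). These shares lay under those over all models, 6.05% for liver and 8.06% for kidney. The scaled shares within 2-fold did not drop at high level in these strata, at 72.5% from 10 to 30 RPKM, 73.2% from 100 to 300 and 74.3% from 300 to 1000. The 55 models at 1000 RPKM or more in heart and lung kept a median of 0.38 and formed the tightest stratum. Their quartiles were 0.19 and 0.50, and 87.3% of them were within 2-fold. These 55 models were short, with a median length of 510 bases, and took 3.90% of liver and 6.63% of kidney reads. As deposited their median was -0.63, so that they were lower in liver by less than the median model was.

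**Figure D3:**
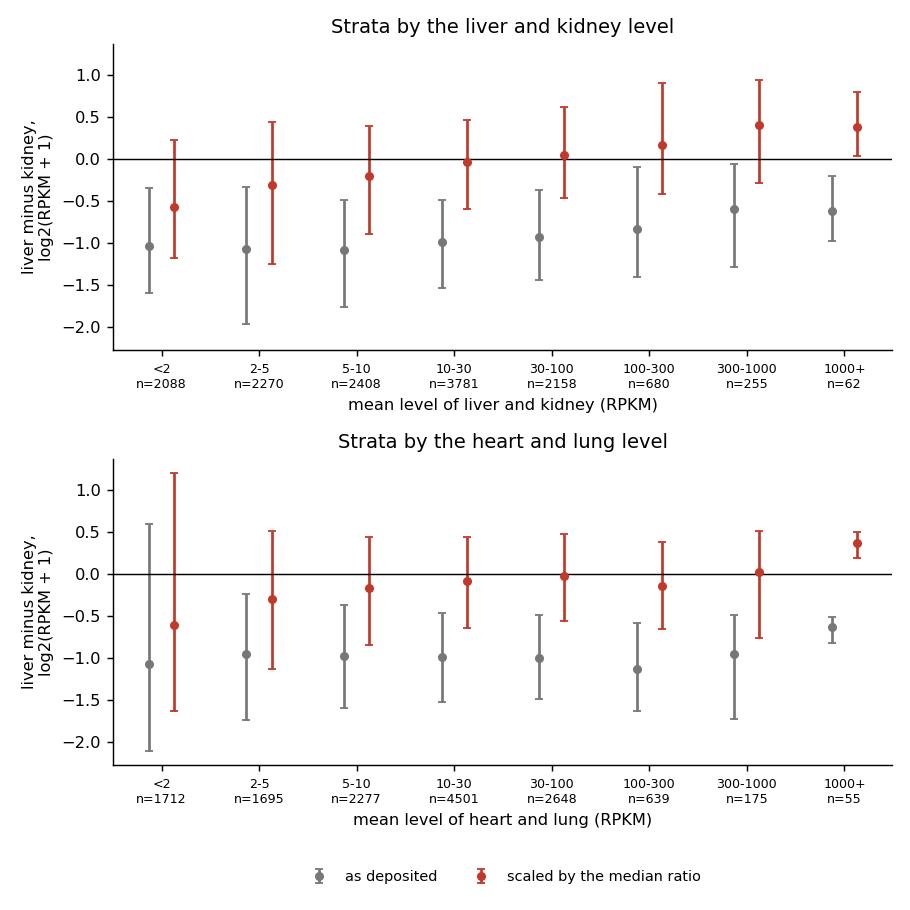
Points are medians and bars the quartiles of the liver minus kidney difference in log2(RPKM + 1) (y) by level stratum in RPKM (x), with the number of models under each stratum, as deposited (grey) and scaled (red). In the upper panel the scaled median goes from -0.57 to 0.39 with the level of liver and kidney; in the lower panel, with strata from heart and lung, it stays within 0.14 of 0 from 10 to 1000 RPKM and stands at 0.38 in the last stratum.

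Models low in heart and lung entered the comparison only where liver or kidney reached 1 RPKM, so the rule itself favours differences among them, and their values are given as a description. Of these 1712 models 444 had 0 liver reads and 119 had 0 kidney reads. Of the 1712 models under 2 RPKM in heart and lung, 35.3% were within 2-fold after scaling, and 304 were called higher in liver and 343 higher in kidney. From 30 to 100 RPKM in heart and lung, 75.04% of 2648 models were within 2-fold, and 90 and 117 were called. The Spearman correlation of liver and kidney was -0.08 in the first of these strata and 0.73 in the second. Among the 198 models of the first stratum with 30 reads or more in both tissues it was 0.53.

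Length made little difference to the median and more to the spread. As deposited, the median difference lay between -1.03 and -0.95 in each of the 7 length bins, from under 500 bases (1659 models) to 5000 bases or more (539 models). Each bin includes its lower edge and not its upper edge. The scaled medians lay between -0.18 and -0.05. The interquartile range of the scaled difference was 1.60 in the shortest bin and 1.03 in the longest, and the share within 2-fold was 60.2% and 73.1%. As deposited these shares were 43.2% and 45.8%. Longer models also had more reads, with medians of 12 liver and 37 kidney reads in the shortest bin and 137 and 423 in the longest. The spread expected from counting was 0.39 and 0.12 in these bins, against observed spreads of 1.18 and 0.77. In the shortest bin 195 models had 0 liver reads, which entered with no counting error.

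With reads held to 30 or more in both tissues, the shortest models no longer had the lowest share within 2-fold. The share within 2-fold after scaling was then 81.5% in the 551 models under 500 bases and 80.3% in the 431 models of 5000 bases or more, with 74.7% the lowest, from 1000 to 1500 bases. The interquartile range of the scaled difference was 0.97 and 0.84 at the ends. The scaled median was 0.20 in the shortest bin, 0.11 from 500 to 1000 bases and -0.03 in the longest. Models that miss this minimum are low in at least 1 of the tissues, so the medians of the models kept are not those of all models of that length. The models kept also differed in level, with a median of 89.8 RPKM under 500 bases and 8.52 at 5000 bases or more.

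Among the most abundant models the scaled shares went the other way with length. At a level of 100 RPKM or more, 76.3% of the 257 models under 500 bases were within 2-fold after scaling, against 69.0% of the 336 from 500 to 1000 bases, 59.0% of the 210 from 1000 to 1500, 57.1% of the 112 from 1500 to 2000 and 51.7% of the 60 from 2000 to 3000. As deposited the shares in these bins were 49.8%, 50.6%, 48.1%, 55.4% and 53.3%, with no such fall. Models called higher in liver numbered 18 of 257 in the shortest of these bins and 10 of 60 from 2000 to 3000 bases. As deposited these counts were 9 and 9. Longer bins held 19 and 3 models, of which 6 and 1 were called higher in liver under both scalings. Within 2-fold were 52.6% and 66.7% of them after scaling, and 26.3% and 33.3% as deposited. Between 10 and 100 RPKM the scaled share within 2-fold showed no steady trend. It was 70.9% in the shortest bin, 70.0% from 1500 to 2000 bases, 76.8% from 3000 to 5000 and 73.9% in the longest. Under 10 RPKM it was 45.5% in the shortest bin and 72.7% in the longest.

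**Figure D4:**
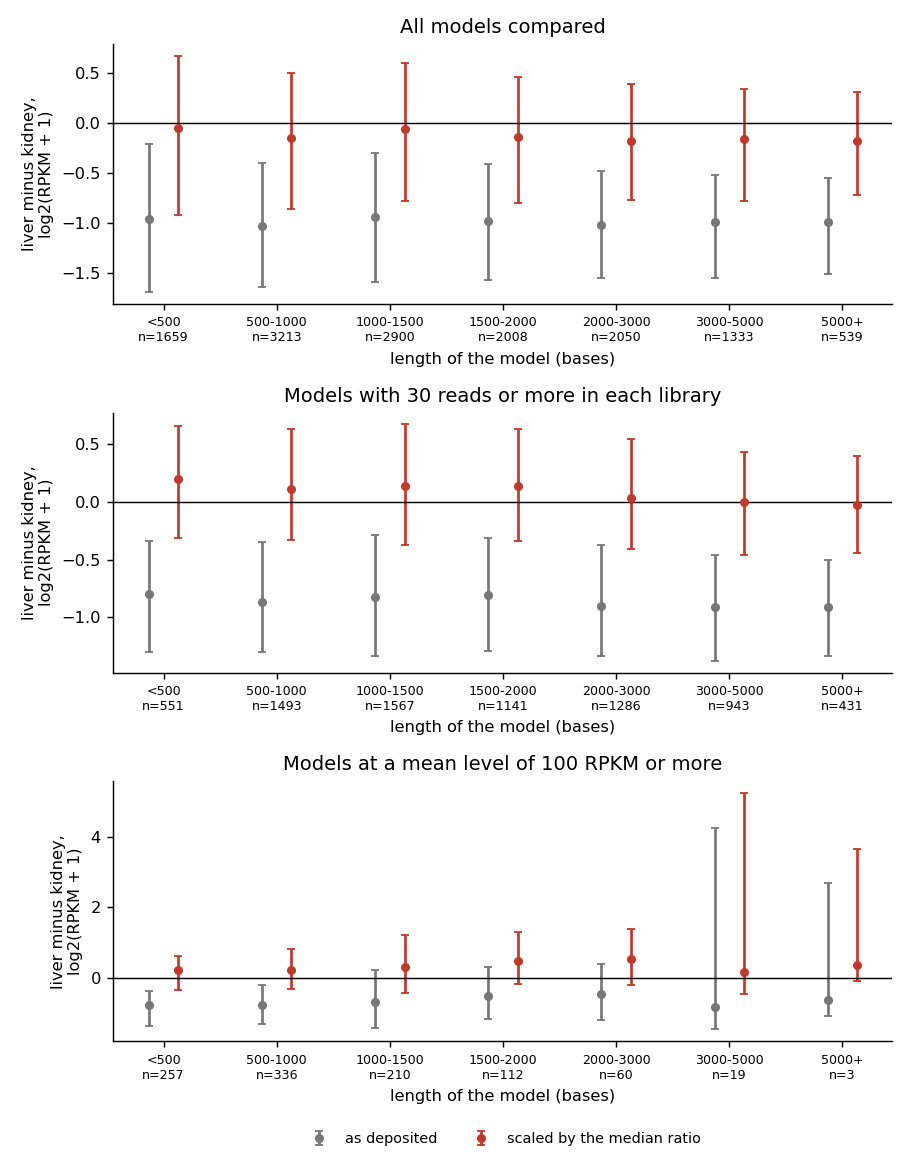
Points are medians and bars the quartiles of the liver minus kidney difference in log2(RPKM + 1) (y) by model length in bases (x), as deposited (grey) and scaled (red), with the number of models under each bin. The top panel holds the 13702 models, the middle one those with 30 reads or more in both libraries and the bottom one those at 100 RPKM or more; medians barely move with length in the top panel, and the bars widen with length in the bottom panel, whose last 2 bins hold 19 and 3 models.

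The called models were slightly shorter than the others. Median lengths were 1221 bases for the 829 higher in liver after scaling, 1240.5 for the 1104 higher in kidney and 1338 for the 11769 within 4-fold. Their quartiles overlapped widely, at 726 to 1851, 716 to 2020 and 786 to 2214 bases.

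The levels of the called models in heart and lung, which the calls did not use, are given as a description. Models low in both entered only where liver or kidney reached 1 RPKM, so the rule itself favours differences among them. The 829 models higher in liver after scaling had medians of 38.8 RPKM in liver, 2.98 in kidney, 1.85 in heart and 7.13 in lung. The 1104 higher in kidney had medians of 26.5 RPKM in kidney, 0.543 in liver, 2.84 in heart and 8.08 in lung. Models within 4-fold stood at 7.26 RPKM in liver, 15.7 in kidney, 11.7 in heart and 18.5 in lung. Detection at 1 RPKM in neither heart nor lung was found for 20.4% of the models higher in liver and 18.0% of those higher in kidney. It was found for 3.26% of those within 4-fold and 5.49% of all models compared. Still, 53.7% and 57.3% of the called models were detected in both heart and lung, against 88.5% within 4-fold and 83.9% of all.

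**Figure D5:**
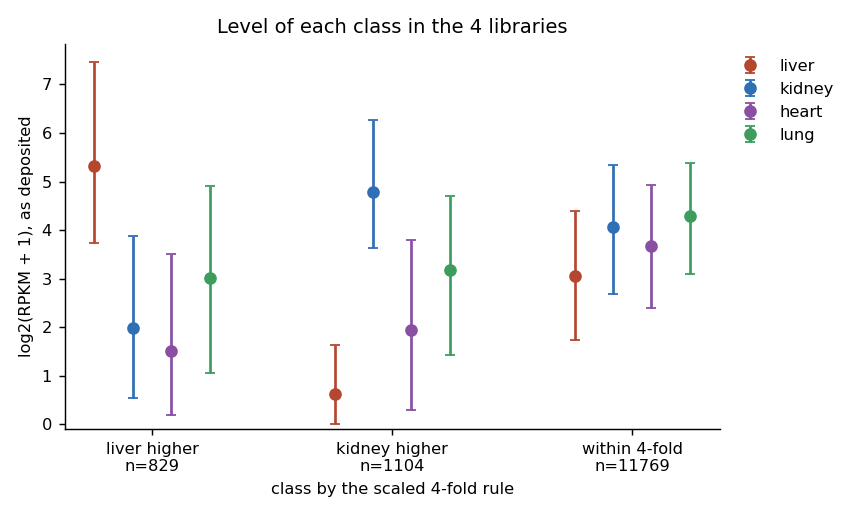
Points are medians and bars the quartiles of log2(RPKM + 1) as deposited (y) in liver, kidney, heart and lung, for the classes of the scaled 4-fold rule (x, with the number of models). In both called classes the lung median lies between the liver and kidney medians and above the heart median, and the models within 4-fold have medians from 7.26 RPKM in liver to 18.5 in lung.

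The direction of the models set apart by high levels in both tissues turned with the scaling. The 231 models at 10 RPKM or more in liver and kidney, and at least 5 times above heart and lung in RPKM + 1, had a median difference of -0.30 as deposited and 0.68 after scaling. The quartiles lay wide apart, at -1.29 and 0.77 and at -0.29 and 1.77. Within 2-fold were 45.9% of them as deposited, against 43.3% of all models, and 46.3% after scaling, against 65.4%. After scaling, 51 (22.1%) were higher in liver and 14 (6.06%) higher in kidney at least 4-fold, against 6.05% and 8.06% of all models. As deposited these counts were 31 (13.4%) and 30 (13.0%), against 3.81% and 16.2% of all models.

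Called models lay next to each other on their scaffolds more often than their overall share. Identifiers number the models of each scaffold, and consecutive numbers were taken as neighbours. By this, 11092 of the 13702 models had a compared model numbered next to them, forming 8181 adjacent pairs. After scaling, 22.2% of the neighbours of models higher in liver were themselves higher in liver, against 5.68% of all neighbours. For models higher in kidney the shares were 19.1% and 7.74%. As deposited they were 21.9% and 3.51% for liver, and 27.4% and 15.8% for kidney. Neighbours called in the opposite direction made up 5.38% for models higher in liver and 3.95% for models higher in kidney after scaling. Across the adjacent pairs the Pearson correlation of the scaled differences was 0.24 and the Spearman correlation 0.19, over pairs that share models and scaffolds. Neighbouring models may be copies that share reads or pieces of a single gene, which was not tested.

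Runs of 3 or more called neighbours numbered 13 for liver (46 models) and 16 for kidney (54 models) after scaling. The longest for liver held 6 models on scaffold8242, at 45.3 to 33037 RPKM in liver and 1.34 to 573 in kidney, with 1.72% of liver reads and 0.0390% of kidney reads. For kidney, runs of 5 lay on scaffold31207, scaffold46016 and scaffold46064. The first ran from 8.73 to 122 RPKM in kidney and from 0 to 0.529 in liver, and the second from 10.5 to 57.2 RPKM in kidney and from 0 to 2.69 in liver. In the third the values were 4.60 to 53.7 RPKM in kidney and 0 to 0.353 in liver. The liver run thus held abundant models, and the kidney runs held models of moderate level that were near absence in liver.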

How the data were processed

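Per the labels' protocols, Trizol was used to extract total RNA and Illumina's TruSeq kit to build the libraries. TopHat is named in the submitters' processing notes. Not given in the sources used here are the counter, how it treated strand and reads matching several places, the build and the gene models' origin. The authors deposited, per library, a whole read count and an RPKM per gene model. As deposited, the counts of a table add up to its library total, and RPKM follows from count, length and total (relative tolerance 1e-12). Of the lengths, 89.5% were multiples of 3, as in coding lengths.

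Liver and kidney tables were joined on the identifier, missing models were taken as 0, and models at 1 RPKM or more in either were kept. Differences used log2(RPKM + 1). Scaling divided liver by the square root of the median ratio and multiplied kidney by it. Named models are the 2 of largest RPKM + 1 ratio per direction with 10 reads or more in the lower and 10 RPKM or more in the higher library. The 2 of highest lower value within 1.1-fold after scaling are also named. The planned marker lists could not be matched to identifiers. No count test was possible with 1 library per tissue. Counting spread was obtained by error propagation from Poisson counts, with no error given to a count of 0. The calls and the scaling were also run on simulated Poisson counts. The models changed there were none of the low ones, and the spread was counting spread alone. That run therefore does not show how reliable the calls are in these libraries. The models compared and the rules were chosen with earlier results of these data known. The software was scipy 1.17.1, numpy 2.4.6, pandas 2.3.3 and matplotlib 3.10.9 under Python 3.11.15, with edgeR 4.0.16 in R 4.3.3 for TMM factors.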

Additional observations from a re-analysis of the deposited data

How the results depend on the processing

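No paired analysis was possible because liver and kidney had 1 library each, and leaving out a library would leave nothing to compare. Of 93 values under alternatives for the comparisons, 66 stayed within 1.5 times (counts), 0.1 (log2 medians), 0.05 (Spearman) or 5 percentage points (shares), 23 moved and 4 reversed. Thinning kidney to the liver total and keeping only models listed in both files moved none of them past these limits. Neither did the other scalings for the scaled counts, under which models higher in liver numbered 735 to 837 and models higher in kidney 1085 to 1281. A pseudocount of 0.1 gave 3391 models higher in kidney as deposited (from 2213), 1957 scaled (from 1104), a median difference of -1.13 (from -0.996) and 58.9% within 2-fold (from 65.4%). A 2-fold minimum gave 950 and 6825 models higher in liver and in kidney as deposited, and 1922 and 2823 scaled. An 8-fold minimum gave 316 and 865 as deposited, and 476 and 489 scaled. With no filter the Spearman correlation was 0.78, the median difference -0.79 and the share within 2-fold 71.0%, and at 10 RPKM or more in either library the Spearman correlation was 0.53 (from 0.70). The counts of called models with no filter, which are among the 66, could not change. A model under 1 RPKM in both libraries cannot reach 4-fold in RPKM + 1, nor 2-fold as deposited. The median and the share within 2-fold with no filter therefore lean toward agreement by construction. Per read outside the 100 models of most reads in either library, the median difference was -0.33. With strata from heart and lung, the scaled median from 100 to 300 RPKM reversed from 0.17 to -0.14, and from 300 to 1000 RPKM it was 0.033 (from 0.41); the cause was not tested. Among models with 30 reads or more in both, the scaled medians under 2, from 2 to 5 and from 5 to 10 RPKM reversed from -0.57 to 0.44, -0.30 to 0.23 and -0.20 to 0.030, and the other strata stayed within 0.1; models low in either tissue are absent from this set by construction. Medians by level without a pseudocount stayed within 0.1, while the quartiles under 2 RPKM lay wider apart. These 2 alternatives were chosen after seeing the data. Among models with 30 reads or more in both, the deposited medians by length were -0.80 under 500 bases, -0.86 from 500, -0.83 from 1000, -0.81 from 1500 and -0.90 from 2000 to 3000 bases, and the 2 longest bins stayed within 0.1. Under 2 RPKM the median model had 2 reads in liver and 13 in kidney, and the part of sequencing depth in this was not tested.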
